A study of Mus musculus with 6 samples.

Results

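The C/EBP transcription factors (CCAAT/enhancer-binding proteins) are described here in TKPTS, a cell line from the mouse renal proximal tubule. The members were taken by gene symbol from the deposited table and were Cebpa, Cebpb, Cebpd, Cebpe, Cebpg and Cebpz, 6 of its 29595 genes. Cells were transfected with pcDNA3.1-Hnf3a-Flag, which carries Flag-tagged HNF3α (gene symbol Foxa1, a forkhead factor), to give the Hnf3a group of 3 libraries. The pcDNA group of 3 libraries received pcDNA3.1-Flag, which has the tag and no insert, and is labelled WT. RNA was sequenced 24 h after transfection in both groups. All 6 libraries came from 1 cell line under transient transfection, and the labels name no injury or cytokine treatment. The labels do not say whether the replicates were separate cultures, so the p-values measure only the spread between these libraries, which may be technical.

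C/EBP proteins bind DNA as dimers through a basic region followed by a leucine zipper (the bZIP fold). C/EBPα drives differentiation in liver, fat and myeloid cells, C/EBPβ and C/EBPδ are the forms known for responses to cytokines, and C/EBPε acts in late granulocyte maturation. C/EBPγ is a short form without an activation domain that pairs with other bZIP proteins. At acute-phase genes, C/EBPβ and C/EBPδ are known to act together with NF-κB, downstream of interleukin and Toll-like receptors. Cebpz carries the name but is no bZIP factor. It codes for a CCAAT-binding protein related to the yeast ribosome biogenesis factor Mak21, and is known from the nucleolus.

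The zipper is what the bZIP members share, and its coding sequence shows how alike they are. In GENCODE vM21, whose coordinates for all 6 members are identical to those of the table (GRCm38), leucine codons that recur every 7 codons were searched for in each coding sequence. The longest run held 5 such codons in Cebpa, Cebpb and Cebpd, 4 in Cebpg and 3 in Cebpe and Cebpz. This search thus did not set Cebpe, a bZIP member, apart from Cebpz, and a short run does not show that a zipper is absent. The comparison below leaves Cebpe out. The stretches of Cebpa, Cebpb, Cebpd and Cebpg are printed because they can be lined up codon by codon, with the leucine codons in capitals. They lie at chr7:35120370-35120456 on the plus strand (Cebpa, codons 318 to 346 of 359), chr2:167689790-167689876 on the plus strand (Cebpb, codons 257 to 285 of 296), chr16:15888000-15888086 on the plus strand (Cebpd, codons 226 to 254 of 268) and chr7:35050483-35050548 on the minus strand (Cebpg, codons 97 to 118 of 150).
Cebpa: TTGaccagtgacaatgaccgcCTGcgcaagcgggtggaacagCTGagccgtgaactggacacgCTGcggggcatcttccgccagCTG
Cebpb: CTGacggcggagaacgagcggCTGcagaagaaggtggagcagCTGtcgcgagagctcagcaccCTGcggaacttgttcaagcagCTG
Cebpd: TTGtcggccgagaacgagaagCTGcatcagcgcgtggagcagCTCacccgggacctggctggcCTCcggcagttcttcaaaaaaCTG
Cebpg: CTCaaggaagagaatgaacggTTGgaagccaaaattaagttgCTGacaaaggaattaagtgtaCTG
Over the 66 bases that all 4 share, Cebpb and Cebpd were the most alike at 66.7% identical bases, followed by Cebpa and Cebpb at 65.2% and Cebpa and Cebpd at 60.6%. Cebpg matched Cebpb at 54.5%, Cebpd at 45.5% and Cebpa at 40.9%.

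The question behind the promoters was whether the letters bound by the transfected factor stand next to these genes. RefSeq promoters (GRCm38.p6) matched 3 of the 6 members, and each is printed from 250 bases before the start of transcription to 30 bases after it. The windows are chr7:35119043-35119322 on the plus strand for Cebpa, chr2:167688665-167688944 on the plus strand for Cebpb and chr7:35056537-35056816 on the minus strand for Cebpg. Capitals mark the matches that were found, which were the TATA letters TATAAA, the core TGACG of the cyclic AMP response element and the CCAAT box, each on either strand.
Cebpa: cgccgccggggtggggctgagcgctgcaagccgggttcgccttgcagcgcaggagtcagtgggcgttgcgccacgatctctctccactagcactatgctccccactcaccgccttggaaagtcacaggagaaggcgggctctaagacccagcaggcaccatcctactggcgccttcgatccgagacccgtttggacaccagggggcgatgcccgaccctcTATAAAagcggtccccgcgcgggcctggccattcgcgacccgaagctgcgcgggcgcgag
Cebpb: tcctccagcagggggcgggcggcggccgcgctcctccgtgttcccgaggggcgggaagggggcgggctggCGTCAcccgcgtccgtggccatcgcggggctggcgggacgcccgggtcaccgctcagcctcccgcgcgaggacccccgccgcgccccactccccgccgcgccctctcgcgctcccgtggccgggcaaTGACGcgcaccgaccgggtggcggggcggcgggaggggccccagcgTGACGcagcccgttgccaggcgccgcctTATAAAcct
Cebpg: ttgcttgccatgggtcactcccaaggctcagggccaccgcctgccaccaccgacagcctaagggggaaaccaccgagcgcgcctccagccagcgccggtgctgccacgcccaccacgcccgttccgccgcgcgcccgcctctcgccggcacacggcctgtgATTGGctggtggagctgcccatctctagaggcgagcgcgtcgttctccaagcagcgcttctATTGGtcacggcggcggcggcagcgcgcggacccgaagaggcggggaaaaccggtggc
The forkhead core TGTTTNC was in none of the 3 windows of 300 bases searched on both strands, against 20.5% of all 32851 promoters. The C/EBP letters TTGCNNAA were also in none of them, against 10.8% of promoters. The NF-κB letters GGG and TTTCC with any 2 bases between them were in none, against 1.63%. The Cebpb window held TGACG at 3 places, which begin 180, 53 and 7 bases upstream of the start, where 20.8% of promoters held it at least once. TATAAA began 30 bases upstream of the Cebpa start and at base 22 of the Cebpb transcript, and 13.6% of promoters held it. The Cebpg window held CCAAT on the minus strand at 2 places, beginning 89 and 28 bases upstream, and 37.4% of promoters held that box. The windows were rich in G and C, with 67.3% for Cebpa, 80.7% for Cebpb and 71.7% for Cebpg against a median of 52.7% over all promoters. A match is a description of letters and not of binding, and the absence of a match covers these windows only.

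In the table, Cebpa (ENSMUSG00000034957) lies on chromosome 7 from 35119293 to 35121928 and Cebpg (ENSMUSG00000056216) on the same chromosome from 35046422 to 35056573, so that 62719 bases separate them. Cebpb (ENSMUSG00000056501) lies on chromosome 2 from 167688915 to 167690418, Cebpd (ENSMUSG00000071637) on chromosome 16 from 15887286 to 15891031, Cebpe (ENSMUSG00000052435) on chromosome 14 from 54710360 to 54712174, and Cebpz (ENSMUSG00000024081) on chromosome 17 from 78919006 to 78937066. Cebpa, Cebpb and Cebpd have a single exon in their longest annotated transcript, Cebpe and Cebpg have 2, and Cebpz has 16. Protein-coding genes on the opposite strand share exonic bases with 3 of them, and whether strand was used in counting is not given in the sources used here. Tmem189 shares 312 bases (20.7% of the exonic bases of Cebpb), Spidr 562 bases (15.0% of Cebpd) and Cebpzos 171 bases (3.67% of Cebpz). Without strand, reads from these stretches cannot be assigned to either gene. The log2 fold changes of these neighbours were 0.0095 for Tmem189, -0.051 for Spidr and -0.050 for Cebpzos, and none passed the edgeR test. Non-coding genes overlap at most 1.93% of the exonic bases of Cebpa and Cebpg.

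The libraries held 60473818 to 71154667 estimated counts, and 17824 genes passed the filter on low counts. Foxa1 was the gene transfected, and the Hnf3a libraries held it at 304.6 ± 26.2 FPKM against 9.66 ± 0.259 FPKM in the pcDNA libraries (mean ± SD of 3 each), which fits the labels. The epithelial markers Krt8, Cdh1 and Epcam were between 102 and 149 FPKM in every library, while Lrp2, Cubn, Hnf4a, Slc5a2 and Vil1, which mark the differentiated proximal tubule, were at most 0.070 FPKM. Krt18 was the only member of that list of 15 genes to pass the test (log2 fold change 0.20, edgeR adjusted p 0.0015). The 13 genes of the list that were tested had a median of 0.065, and 3.17% of all genes tested passed. Hnf3a replicates 2 and 3 stood apart from the other libraries. The 10 fibroblast genes listed summed to 7.94 and 9.84 FPKM in these 2 libraries and to between 0.184 and 0.285 FPKM in the other 4. For the 13 macrophage genes the sums were 18.6 and 20.6 FPKM in these 2 libraries, against 13.2 to 14.8 FPKM in the other 4. All 10 and all 13 genes were over the floor of 12 counts (about 3 fragments) in Hnf3a replicates 2 and 3, against 2 to 5 and 4 to 6 genes elsewhere. Tyrobp and C1qa, macrophage genes picked out after their values were seen, were at 0 in the other 4 libraries, while 3 of the 13 were over the floor in all 6. Of all 17824 genes tested, 2412 had an unadjusted p under 0.05 in edgeR, and the DESeq2 Wald test called 819. With all libraries, edgeR called 0 of 8 tested fibroblast genes (median log2 fold change 1.81, 5 at an unadjusted p under 0.05, 3 called by the DESeq2 Wald test) and 0 of 7 tested macrophage genes (median 0.82, 3 at an unadjusted p under 0.05, 0 by DESeq2). Whether their source bears on the C/EBP values was not tested, other than by leaving these libraries out of the fits below.

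Cebpb was the most abundant C/EBP gene in TKPTS cells and Cebpe the least, and the order of the 6 genes was the same in every library. On the FPKM scale, which divides by transcript length and so allows genes to be compared, Cebpb was at 64.6 ± 3.16 FPKM (SD over the 6 libraries) and Cebpz at 25.4 ± 0.666 FPKM. Cebpd followed at 16.8 ± 1.28 FPKM and Cebpg at 12.2 ± 0.199 FPKM, and Cebpa was far below them at 0.666 ± 0.115 FPKM. Neighbours in this order never overlapped. The mean level of Cebpb was 2.54 times that of Cebpz, Cebpz was 1.51 times Cebpd, Cebpd was 1.37 times Cebpg, and Cebpg was 18.4 times Cebpa. Among all genes tested, the mean FPKM of Cebpb lay at the 96.1th percentile and that of Cebpa at the 28.6th.

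Within the 5 bZIP members the make-up of the family hardly varied between libraries. Cebpb gave 67.8% to 68.9% of their summed FPKM, Cebpd 17.1% to 18.6% and Cebpg 12.01% to 13.8%. Cebpa gave 0.597% to 0.857%, and Cebpe at most 0.0414%. The summed level was 87.6, 90.4 and 99.6 FPKM in Hnf3a replicates 1 to 3 and 94.9, 97.0 and 96.3 FPKM in pcDNA replicates 1 to 3. The Hnf3a libraries thus lay on both sides of the pcDNA libraries, with a wider spread (SD 6.27 against 1.06 FPKM).

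**Figure D1:**
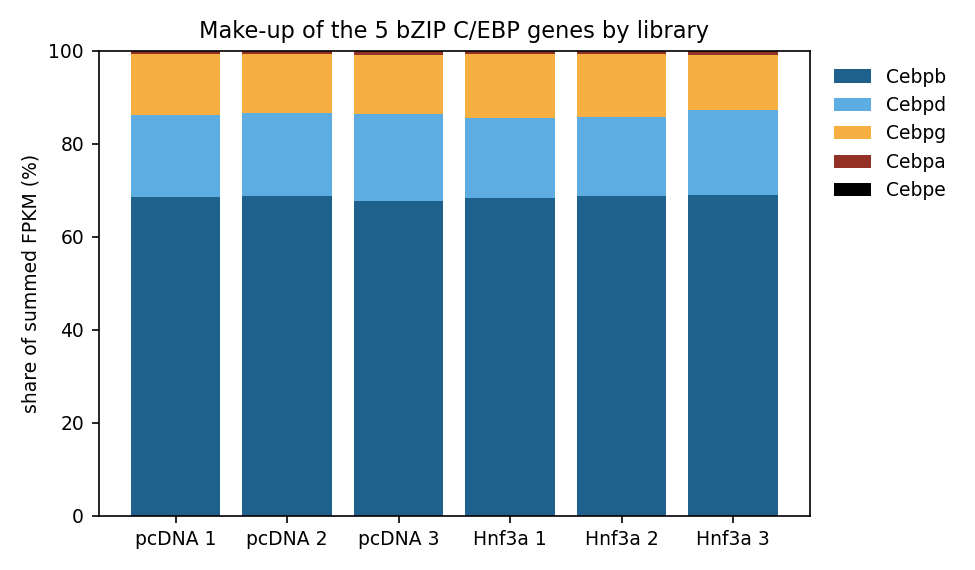
Share of each bZIP C/EBP gene in their summed FPKM (vertical axis, percent) for the 6 libraries (horizontal axis, 3 pcDNA and 3 Hnf3a). The Cebpb segment takes 67.8% to 68.9% of every bar, and Cebpa and Cebpe are thin or invisible at the top.

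The main comparison asked whether HNF3α overexpression changed any C/EBP gene. None of the 5 members that could be tested passed edgeR's quasi-likelihood test at an adjusted p of 0.05, against 3.17% of all genes tested, of which 2.13% were lower and 1.04% higher in the Hnf3a group. None had an unadjusted p under 0.05, which 2412 of all 17824 genes tested had. The Wald test of DESeq2 also called 0, against 819 of all genes. All 5 log2 fold changes were below 0, as were 49.8% of those of all genes tested. The median of the 5 was -0.057 beside 0.00085 for all genes tested, and the farthest from 0 was -0.12. In bulk RNA, fewer cells that express a gene and less of its RNA per cell cannot be told apart.

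Cebpb, the cytokine-responsive activator, was at 59.9, 62.1 and 68.6 FPKM in Hnf3a replicates 1 to 3 and at 65.1, 66.6 and 65.3 FPKM in pcDNA replicates 1 to 3. Hnf3a replicates 1 and 2 were below every pcDNA library and replicate 3 above them, so the groups overlapped. Cebpb gave a log2 fold change of -0.057 (SE 0.045, edgeR adjusted p 0.679). Its 95% interval ran from -0.16 to 0.041, or from -10.2% to 2.89% relative to the pcDNA level.

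Cebpd, its companion in acute-phase induction, showed the same arrangement of libraries. Its levels were 15.1, 15.5 and 18.2 FPKM in Hnf3a replicates 1 to 3 and 16.6, 17.4 and 17.9 FPKM in pcDNA replicates 1 to 3. Again replicates 1 and 2 of the Hnf3a group were the lowest of the 6 libraries and replicate 3 was the highest. This gave a log2 fold change of -0.10 (SE 0.062, edgeR adjusted p 0.561) and a 95% interval from -15.1% to 2.54%. This result rested on Hnf3a replicate 3. Without that library the log2 fold change was -0.19 and the edgeR adjusted p 0.0419, which is past the threshold, and Cebpd was then the 1 member called. Without Hnf3a replicates 2 and 3, those with fibroblast genes, it was -0.20 with an edgeR adjusted p of 0.154.

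Cebpg, the short partner, was at 12.04, 12.28 and 11.95 FPKM in the Hnf3a group and at 12.47, 12.37 and 12.32 FPKM in the pcDNA group. It was the only tested member whose groups did not overlap in FPKM, which 19% of all genes tested also did not. The gap was small beside the level. It came to a log2 fold change of -0.043 (SE 0.035, edgeR adjusted p 0.689), and the 95% interval ran from -7.88% to 2.31%.

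Cebpz, the nucleolar protein, was at 25.8, 25.1 and 25.0 FPKM in the Hnf3a group and at 25.4, 26.5 and 24.6 FPKM in the pcDNA group. The 3 Hnf3a libraries all lay within the pcDNA range. Its log2 fold change was -0.019 (SE 0.037, edgeR adjusted p 0.902), with a 95% interval from -6.61% to 4.23% and a sign that changed when pcDNA replicate 2 was left out (0.0098, adjusted p 0.972).

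Cebpa, the differentiation factor of liver, fat and myeloid cells, was low and is measured with less precision. It had 115, 114 and 152 estimated counts in Hnf3a replicates 1 to 3 and 120, 112 and 159 in pcDNA replicates 1 to 3, at levels of 0.597, 0.544 and 0.782 FPKM and 0.668, 0.579 and 0.825 FPKM. Replicate 3 was the highest in both groups, and the groups overlapped. If 1 fragment is worth 4 counts, each value rests on 28.0 to 39.8 fragments. Cebpa had a log2 fold change of -0.12 (SE 0.21, edgeR adjusted p 0.899), and its 95% interval from -33.1% to 27.2% was the widest of the family. Without pcDNA replicate 3 the sign turned (0.030, adjusted p 0.983).

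Cebpe, the granulocyte member, was not detectable at this depth. It had 4 counts in Hnf3a replicate 3 (0.0412 FPKM) and 0 counts in the other 5 libraries, all under the floor of 12 counts, which is 0.169 to 0.198 CPM (counts scaled to the size of the library). No fold change is given for it, and it was the only member left out by the filter.

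**Figure D2:**
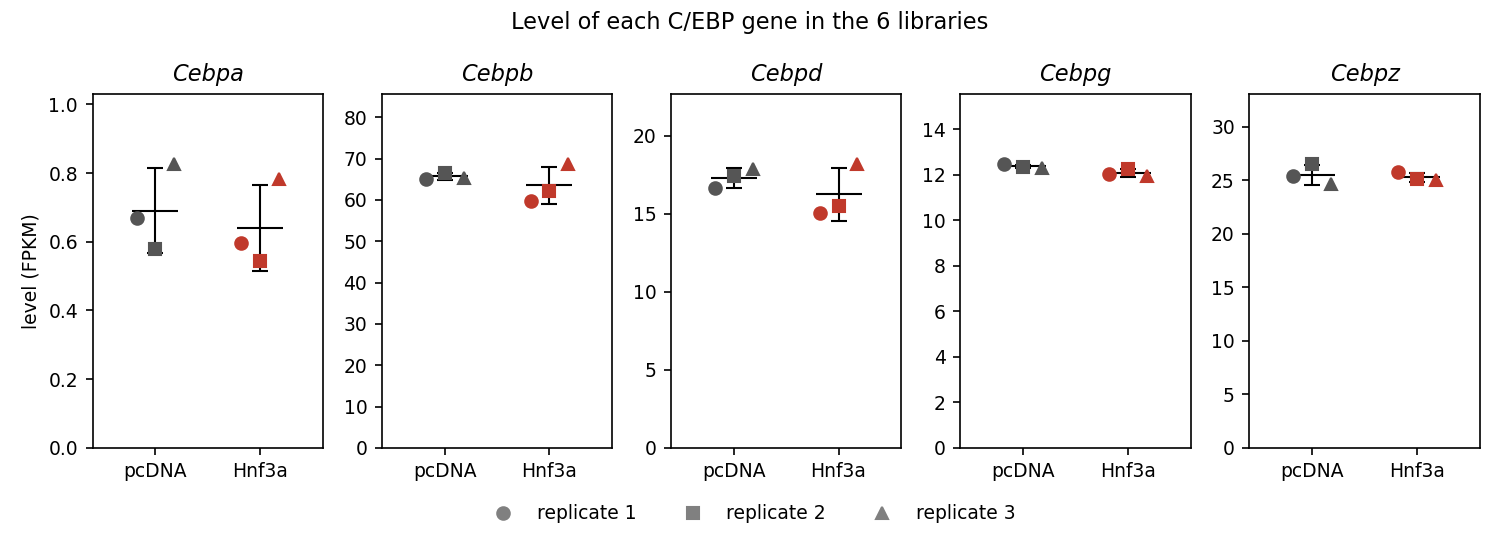
Level of Cebpa, Cebpb, Cebpd, Cebpg and Cebpz (vertical axes, FPKM, each from 0) in the pcDNA (grey) and Hnf3a (red) groups, with replicates 1, 2 and 3 as circle, square and triangle and bars for the mean and SD of n = 3. Hnf3a replicate 3 is the highest of the 6 libraries for Cebpb (68.6 FPKM) and Cebpd (18.2 FPKM), and the groups fail to overlap only for Cebpg.

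Cebpb and Cebpd varied together from library to library. Over the 6 libraries, Pearson's r of their log2 CPM was 0.946, which ranked Cebpd 48th for likeness to Cebpb among 11922 genes with a mean of at least 1 FPKM. Cebpg (r = 0.12) and Cebpz (r = -0.027) were far less alike to Cebpb, and Cebpa lay between these values and that of Cebpd (r = 0.58). The 5 genes most like Cebpb were Swi5, a DNA repair factor (r = 0.994), Sft2d2 (r = 0.990), Ccdc107 (r = 0.984), Gipc1, an adaptor of membrane traffic (r = 0.984), and Fibp, which binds fibroblast growth factor (r = 0.984). As an example, Swi5 was at 17.3, 17.9 and 19.8 FPKM in Hnf3a replicates 1 to 3 and at 19.0, 19.2 and 18.8 FPKM in pcDNA replicates 1 to 3, so that replicate 3 of the Hnf3a group was the highest here too. For Cebpz the 5 were Gm9104 (r = 0.987), Clp1, an RNA kinase (r = 0.981), the kinetochore gene Knl1 (r = 0.9748), the centriole kinase gene Plk4 (r = 0.974) and Zfp869 (r = 0.969). None of these 10 genes passed the edgeR test. They were picked over the same 6 libraries for their likeness to Cebpb or Cebpz, which did not pass. That choice favours the same outcome, so it is no separate result. These r values describe 6 libraries that share depth, composition and handling with the genes compared.

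Acute-phase and cytokine genes that C/EBPβ and C/EBPδ are known to bind, by contrast, were widely lower in the Hnf3a group while the members themselves showed no called change. Of 28 such genes, 25 were tested, 18 fell, none rose and 7 did not pass. Of all genes tested, 2.13% fell and 1.04% rose. The median log2 fold change of the list was -0.80 beside 0.00085 for all genes. The log2 fold change was below 0 for 24 of the 25, and for 49.8% of all genes tested. The exception in the list was Il1b (0.040, edgeR adjusted p 0.985), picked out after its value was seen. The list was drawn up with earlier results of these libraries known, and many of its genes are also NF-κB targets, so its count is not independent evidence of its direction. Orm2, Orm3 and Ptx3 were too low to test. The summed level of the list was 2061 to 2148 FPKM in the Hnf3a libraries and 3392 to 3580 FPKM in the pcDNA libraries.

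The neutrophil chemokine gene Cxcl5 was at 263, 257 and 250 FPKM in the Hnf3a group and at 551, 516 and 529 FPKM in the pcDNA group. Csf3, which codes for the granulocyte growth factor G-CSF, was at 132, 135 and 136 FPKM and at 288, 274 and 265 FPKM. Both were lower in all 3 Hnf3a libraries with no overlap, by log2 fold changes of -1.06 (SE 0.032, edgeR adjusted p 5.99e-10) and -1.04 (SE 0.035, adjusted p 1.03e-09). Cfb, complement factor B, was at 17.3, 16.5 and 18.2 FPKM against 39.3, 38.4 and 39.4 FPKM. Its log2 fold change was -1.18 (SE 0.042, edgeR adjusted p 1.82e-09), and again the groups lay apart.

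Nos2, the inducible nitric oxide synthase, was at 2.60, 2.28 and 2.25 FPKM in the Hnf3a group and at 7.51, 7.53 and 7.86 FPKM in the pcDNA group. Lcn2, the iron-scavenging lipocalin NGAL that is used as a marker of tubular injury, was at 214, 202 and 220 FPKM and at 366, 368 and 388 FPKM. Both fell without overlap, Nos2 by the larger ratio (log2 fold change -1.69, SE 0.068, edgeR adjusted p 7.36e-09) and Lcn2 from the higher level (log2 fold change -0.83, SE 0.035, edgeR adjusted p 1.1e-08). Saa3, a serum amyloid A gene, was at 2.24, 2.15 and 2.58 FPKM against 8.01, 7.95 and 8.55 FPKM, a log2 fold change of -1.82 (SE 0.086, edgeR adjusted p 3.36e-08). The serum amyloid genes Saa1, Saa2 and Saa3 share stretches of sequence, so the split of reads between them is uncertain.

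The 18 called targets ran from -2.27 for Saa2 to -0.36 for Lbp on the log2 scale, and the highest adjusted p among them was 0.0499 for Orm1. Saa2 had 8, 14 and 8 estimated counts in Hnf3a replicates 1 to 3 and 26, 42 and 70 in pcDNA replicates 1 to 3. The low end of the range thus rests on a gene near the floor of 12 counts. Saa1, also called (edgeR adjusted p 0.0468), had 12, 22 and 23 counts against 37, 71 and 54. Saa1, Saa2, Lbp and Orm1 were picked out after their values were seen. Saa2 and Orm1 each passed the test in only 1 of the 6 fits that left out a single library. All 18 had groups that did not overlap in FPKM, as had 19% of all genes tested. They were selected by this same contrast, which favours such a gap. The abundant prostaglandin synthase gene Ptgs2 did not pass, with 52.7, 52.2 and 49.7 FPKM in the Hnf3a group and 54.1, 50.3 and 51.6 FPKM in the pcDNA group (log2 fold change -0.021, edgeR adjusted p 0.895). Hpx, the haem-binding hemopexin, had a log2 fold change of -1.04 (edgeR adjusted p 0.195) and Tnf one of -0.78 (edgeR adjusted p 0.411), and neither passed. Without pcDNA replicate 3, the edgeR adjusted p of Hpx was 0.0011.

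The 18 called targets were selected by this same contrast, so their place beside the C/EBP genes is given as a description only. Their 95% intervals lay wholly below those of Cebpb, Cebpd, Cebpg and Cebpz, and 12 of the 18 lay below that of Cebpa, the others being Il6, Ccl2, Orm1, C3, Lbp and Il1rn. Among the 7 targets not called, the interval of Ptgs2 ran from -0.099 to 0.058 and that of Tnf from -1.61 to 0.048. Both overlapped those of the C/EBP genes, as did the intervals of Il1b, Itih4 and Serpina3n. The interval of Hpx (-1.77 to -0.31) lay wholly below those of Cebpb, Cebpd, Cebpg and Cebpz. That of Fgb (-1.54 to -0.19) lay below those of Cebpb, Cebpg and Cebpz. The number of targets called was 11 in place of 18, all lower, both with limma on log2(FPKM + 1) and in edgeR without Hnf3a replicates 2 and 3.

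**Figure D3:**
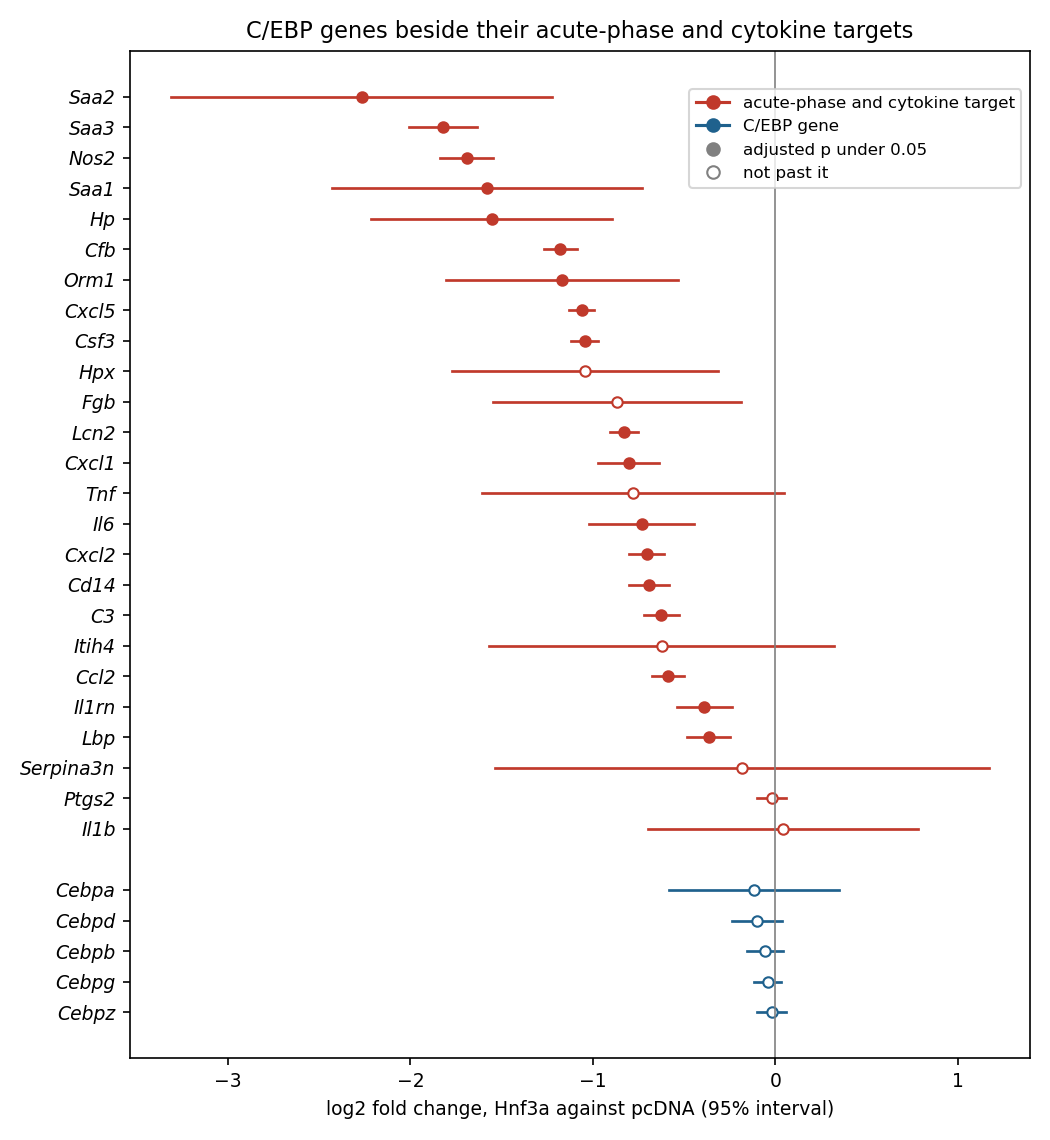
Log2 fold change of Hnf3a against pcDNA (horizontal axis, with 95% interval) for the 25 tested acute-phase and cytokine targets (red) and the 5 tested C/EBP genes (blue), filled where the edgeR adjusted p was under 0.05. The 18 filled points run from -2.27 (Saa2, near the floor of 12 counts) to -0.36, and the C/EBP genes lie between -0.12 and -0.019 with open points.

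Factors that pair with C/EBP proteins or control their stability gave 2 calls in opposite directions. Of 13 such genes, 12 were tested, 1 rose, 1 fell and 10 did not pass, where 3.17% of all genes tested were called. An unadjusted edgeR p under 0.05 was found for 3 of the 12, and for 2412 of all 17824 genes tested. The median log2 fold change of the 12 was -0.019. Fos, the AP-1 subunit, fell from 17.0, 16.8 and 18.5 FPKM in the pcDNA group to 11.9, 11.7 and 11.5 FPKM in the Hnf3a group (log2 fold change -0.59, SE 0.052, edgeR adjusted p 1.69e-05). Trib2, a pseudokinase known to lead C/EBPα to degradation through the ubiquitin ligase COP1, rose from 0.536, 0.508 and 0.457 FPKM to 0.853, 0.815 and 0.825 FPKM (log2 fold change 0.72, SE 0.15, edgeR adjusted p 0.0155). Both groups of 3 lay apart for Fos and for Trib2. The Trib2 call was lost in 3 of the 6 fits that left out a single library, without Hnf3a replicate 2, pcDNA replicate 2 or pcDNA replicate 3 (adjusted p up to 0.0703).

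Ddit3, whose protein CHOP dimerises with C/EBP factors and blocks their binding, was at 7.13, 7.77 and 7.40 FPKM in the Hnf3a group and at 6.27, 7.08 and 6.70 FPKM in the pcDNA group. The 3 Hnf3a libraries were the highest, but only narrowly, and the log2 fold change of 0.15 (SE 0.080, edgeR adjusted p 0.485) did not pass. Nor did the other abundant partners. Atf4, the stress factor that pairs with C/EBPγ and C/EBPβ, had a log2 fold change of -0.076 (edgeR adjusted p 0.55), Atf3 one of -0.011 (edgeR adjusted p 0.956) and Jun one of -0.026 (edgeR adjusted p 0.901).

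Among 15 genes of the interleukin 6, interleukin 17 and NF-κB routes that induce or accompany Cebpb and Cebpd, 1 rose and 3 fell. The other 11 did not pass, and the median log2 fold change was -0.040. Of all genes tested, 1.04% rose and 2.13% fell. In edgeR 7 of the 15 had an unadjusted p under 0.05, as had 2412 of all 17824 genes tested. The DESeq2 Wald test called 5 of the 15, and 819 of all genes. Nfkbiz, which codes for the NF-κB cofactor IκBζ, was at 22.6, 22.6 and 22.4 FPKM in the Hnf3a group and at 31.4, 31.5 and 31.3 FPKM in the pcDNA group. Nfkb1, the p50 subunit gene, was at 20.8, 20.8 and 19.0 FPKM and at 25.3, 25.1 and 24.7 FPKM. Both fell with groups that lay apart, by log2 fold changes of -0.49 (SE 0.031, edgeR adjusted p 7.64e-07) and -0.32 (SE 0.037, edgeR adjusted p 0.000183). The receptor genes Lifr (3.56, 3.62 and 3.92 against 2.83, 3.06 and 3.03 FPKM) and Il6st (13.2, 12.3 and 11.9 against 13.9, 14.3 and 14.1 FPKM) moved in opposite directions, the first up and the second down. Their log2 fold changes were 0.31 (SE 0.054, edgeR adjusted p 0.0052) and -0.19 (SE 0.040, edgeR adjusted p 0.0194). The Il6st call held in only 1 of the 6 fits without a single library, and the Lifr call in all 6. Lifr did not pass in limma on log2(FPKM + 0.1), log2(FPKM + 1) or log2(FPKM + 0.01) (limma adjusted p 0.101, 0.11 and 0.0917). Neither Rela, the main activating NF-κB subunit gene (log2 fold change -0.027, edgeR adjusted p 0.903), nor Stat3 (0.086, edgeR adjusted p 0.235) nor Il17rc (-0.040, edgeR adjusted p 0.739) passed.

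Genes that work beside Cebpz in the nucleolus gave no call. None of 13 genes for nucleolar and ribosome biogenesis proteins, all tested, passed in edgeR, where 3.17% of all genes tested passed. Their median log2 fold change was -0.0090. Npm1 (nucleophosmin, log2 fold change 0.014), Ncl (nucleolin, -0.045) and Pes1 (-0.0019) were the most abundant of them. The NF-Y subunits, the other CCAAT-binding proteins, did not pass either, at 0.045 for Nfya, 0.0016 for Nfyb and -0.00013 for Nfyc with a median of 0.0016. None of these 16 genes had an unadjusted p under 0.05, which 2412 of all 17824 genes tested had. The DESeq2 Wald test called 0 of the 16, and 819 of all genes.

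**Figure D4:**
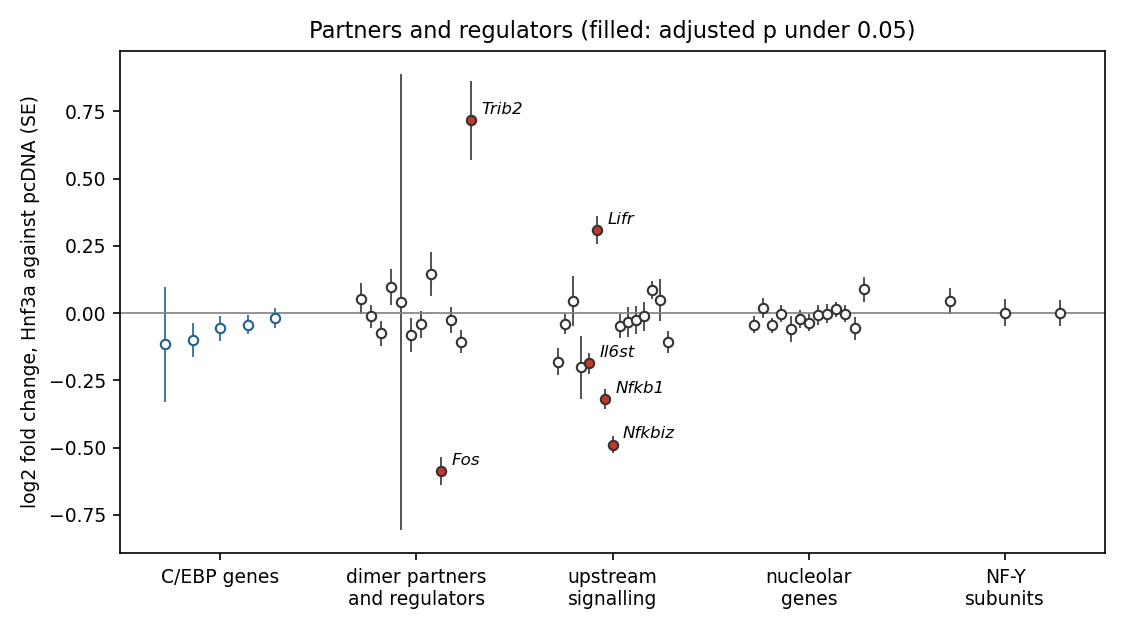
Log2 fold change of Hnf3a against pcDNA (vertical axis, bars for the standard error) for the tested C/EBP genes, dimer partners and regulators, upstream signalling genes, nucleolar genes and NF-Y subunits. Filled points passed the edgeR test, and they are Trib2 (0.72), Lifr (0.31), Il6st (-0.19), Nfkb1 (-0.32), Nfkbiz (-0.49) and Fos (-0.59).

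Genes that C/EBPα and C/EBPβ switch on in liver and fat were mostly too low to test. Of 16 such genes, 7 were at or under 12 counts in every library and 5 were tested, with a median log2 fold change of 0.086. The edgeR test called 0 of the 5, where it called 3.17% of all genes tested. Of the 5, 2 had an unadjusted p under 0.05, as had 2412 of all 17824 genes tested. The DESeq2 Wald test called 1 of the 5, and 819 of all genes. Scd1, the stearoyl-CoA desaturase, was the abundant exception at 48.8, 46.8 and 48.4 FPKM in the Hnf3a group and 41.1, 43.7 and 45.0 FPKM in the pcDNA group. Its groups did not overlap, and its log2 fold change of 0.14 fell just short of the threshold (SE 0.037, edgeR adjusted p 0.0567). Alb (log2 fold change -0.72, edgeR adjusted p 0.27) and Ppargc1a (0.086, edgeR adjusted p 0.914) did not pass, although Alb did without pcDNA replicate 3 (edgeR adjusted p 0.0007).

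Granulocyte genes, the known territory of C/EBPε, gave 1 call. Of 12 such genes, 6 were tested, 1 fell and none rose, where 3.17% of all genes tested were called. The median log2 fold change was -0.19, and 5 of the 12 were at or under 12 counts in every library. The gene that fell was Ltf, which codes for lactoferrin and is also made by epithelia. It was at 7.05, 7.04 and 7.496 FPKM in the Hnf3a group and at 12.3, 11.6 and 13.9 FPKM in the pcDNA group (log2 fold change -0.81, SE 0.064, edgeR adjusted p 5.07e-06). The groups lay apart. Prtn3, S100a8 and S100a9, the other granulocyte genes with the highest levels, stayed at or under 2.02 FPKM and did not pass.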

How the data were processed

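RNA of TKPTS cells was sequenced in 3 Hnf3a and 3 pcDNA libraries, and groups came from the sample labels. The authors deposited 1 table with an estimated count (an expected count, given as a whole number) and an FPKM value (fragments scaled to transcript length and library size) per gene and library. The submitters' processing notes list cutadapt 1.9, HISAT2 2.0.4, UMI-tools, StringTie 1.3.4d, DESeq2, edgeR and the build mm10, without their roles. Libraries were strand-marked with unique molecular identifiers and read as pairs of 150 bases, and the use of strand and identifiers in counting is not given in the sources used here.

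The estimated counts were tested two-sided with edgeR 4.0.16 (filterByExpr, TMM, robust quasi-likelihood fit, no covariate) in R 4.3.3, with Benjamini-Hochberg adjustment over 17824 genes and a threshold of 0.05. Standard errors are the absolute log2 fold change over the square root of F, and intervals are at 95%. For 1 gene in groups of 3, the smallest p of an exact permutation test is 0.1. Between 1148 and 1203 genes a library sat at exactly 4 counts, more than at 3 (661 to 694) or 5 (368 to 400), so 1 fragment was taken as up to 4 counts and the floor as 12. The floor covers counting error only, while the 95% intervals are of fold changes and take in the spread between libraries. Levels are deposited FPKM values.

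Genes named were the members, Foxa1, Ddit3, in each list up to 6 past the threshold by p and up to 3 others by mean FPKM, all NF-Y subunits, and for each of the 2 most abundant members the 5 genes most like it. The members and the 10 lists (acute-phase and cytokine targets, liver and fat targets, dimer partners and regulators, upstream signalling, nucleolar genes, NF-Y subunits, granulocyte, macrophage, fibroblast and epithelial genes) were chosen with earlier results of these data known. Slc34a1 was not analysed here. Alternatives were other filters, a replicate block, leaving out each library, limma 3.58.1 on log2(FPKM + pseudocount, which was 0.1, 1 or 0.01), other scaling, DESeq2 1.42.0 and counts divided by 4. Leaving out Hnf3a replicates 2 and 3 was added after the data were seen. On the log2(FPKM + pseudocount) scale, changes of low genes are understated. The procedure was tested on simulated data.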

Additional observations from a re-analysis of the deposited data

How the results depend on the processing

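Across 17 alternatives to the edgeR fit, Cebpb (-0.13 to -0.020) and Cebpg (-0.050 to -0.031) stayed below 0 and short of the threshold. Cebpd ranged from -0.20 to -0.053 and passed only without Hnf3a replicate 3. Leaving out 1 library at a time gave Cebpd -0.19 to -0.053, Cebpa -0.28 to 0.030, Cebpz -0.045 to 0.0098 and 0 to 1 members called. Cebpz was also above 0 without Hnf3a replicates 2 and 3 (0.017), and Cebpa could not be tested with a filter of 1 FPKM in 3 libraries. Foxa1 passed in all 17 (4.84 to 5.11). For Cebpe an alternative gave a fitted value with the filter of at least 1 count only (edgeR adjusted p 0.603), from 4 counts in 1 library.

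The number of genes called was 565, with 263 to 643 on leaving out 1 library (263 without Hnf3a replicate 2, 267 without pcDNA replicate 2, 286 without pcDNA replicate 1), 236, 231 and 245 in limma with pseudocounts of 0.1, 1 and 0.01, and 322 without Hnf3a replicates 2 and 3, where the lone Hnf3a library is assumed to vary like the pcDNA libraries. Acute-phase and cytokine targets called numbered 11 there and 11 in limma with a pseudocount of 1, and 12 to 19 in the other 15. With the replicate block, 463 genes, 0 members and 16 of these targets were called. Over all genes tested, libraries with the same number did not deviate together from their group means (r = -0.041, -0.010 and 0.00998). Counting noise of low genes enters these r values, so they cannot decide whether such libraries shared a culture or a batch. The labels do not give it. The cause of the differences in the numbers called was not tested.

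Of the other lists, 5 of 13 tested macrophage and 5 of 10 tested fibroblast genes were called, all higher, without Hnf3a replicate 1. In that fit 643 of all 18556 genes tested were called. With all libraries, 7 macrophage and 8 fibroblast genes were tested. The Hnf3a libraries left in that fit are those singled out above for high values of these lists. The direction of these calls was thus set by the choice of libraries. The nucleolar genes and NF-Y subunits stayed at 0 throughout. Of 32 named list genes short of the threshold, 12 changed sign and 8 passed in some alternative. Cebpa rests on 28.0 to 39.8 fragments a library, and Cebpe was not detectable at this depth.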

Other observations

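Calls of Atf4 and Cebpd changed when Hnf3a replicate 3 was left out. The level of Atf4 was 236, 252 and 276 FPKM in Hnf3a replicates 1 to 3 and 261, 274 and 266 FPKM in pcDNA replicates 1 to 3, so that Hnf3a replicate 3 was the highest of the 6 libraries, as for Cebpb and Cebpd. Without that library the log2 fold change was -0.14 (SE 0.031, edgeR adjusted p 0.041) for Atf4 and -0.19 (SE 0.043, edgeR adjusted p 0.0419) for Cebpd, both past the threshold, and -0.11 (SE 0.035, edgeR adjusted p 0.138) for Cebpb. Without Hnf3a replicate 1 the values were -0.029 for Atf4, -0.053 for Cebpd and -0.020 for Cebpb, and none passed. Without both Hnf3a replicates 2 and 3, Atf4 passed (-0.18, edgeR adjusted p 0.0233) and Cebpd did not (-0.20, edgeR adjusted p 0.154), and the difference between the genes was not tested. Cebpg was at similar values without replicate 3 and without replicate 1 (-0.033 and -0.044). Atf4, Cebpb and Cebpd were set side by side after their values were seen.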
